A study of Mus musculus with 3 samples.

Results

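The alpha and beta tubulin genes examined here are 3 alpha members (Tuba1a, Tuba1b and Tuba1c) and 7 beta members (Tubb2a, Tubb2b, Tubb3, Tubb4a, Tubb4b, Tubb5 and Tubb6), chosen by symbol. All 10 are listed among the 27998 genes of the deposited count matrices. They were followed in single cells of the mouse subventricular zone (SVZ), the germinal layer along the lateral ventricle, from adult animals carrying aSMACreERt2::Rosa26-tdTomato (a tamoxifen-dependent Cre under the smooth muscle actin promoter, with a tdTomato reporter) together with the Sox2-GFP allele B6;129S-Sox2tm2Hoch/J. One library of tdTomato-positive/GFP-positive cells (1200 sorted) was set beside 2 libraries of tdTomato-negative/GFP-positive cells (1200 and 6000 sorted). All cells thus carried the same alleles, passed a GFP gate and were made into 10x Single Cell 3' v2 libraries. The labels give 5 mice and no ages, and no tamoxifen dose or chase. They do not say which animals went into which library. The p-values of the gate comparisons below rest on the spread between libraries. Those of the class comparisons rest on the spread left between sums of class and library, over all classes, once library is a block. Either spread may be technical. In both, the spread is estimated largely over all genes tested together. A small p is therefore not evidence from that gene's own replicates alone.

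Microtubules are polymers of alpha and beta tubulin dimers, and mammals encode several near-identical isotypes of each. Cilia, mitotic spindles and growing neurites are all built from them, and the isotypes that a cell makes differ by cell type. In textbook accounts Tubb3 marks neurons, Tubb4b is a main isotype of motile cilia, Tubb4a is a myelin-forming glia and neuron isotype, Tubb2b and Tuba1a are needed for neuron migration, and Tubb5 is made by dividing progenitors. Most sequence differences between isotypes, and many post-translational modifications such as glutamylation, lie in the acidic C-terminal tail. A folding line of prefoldin, the CCT chaperonin and the tubulin cofactors makes the dimers.

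The coding sequences of the beta genes ended as follows, shown because these bases encode the tail in which isotypes differ. Each line gives the last 60 coding bases and the stop codon, which is in capitals, read on the gene's own strand of GRCm38: Tubb4b at chr2:25222308-25222370 (minus), Tubb5 at chr17:35834982-35835044 (minus), Tubb2b at chr13:34127471-34127533 (minus), Tubb2a at chr13:34074468-34074530 (minus), Tubb3 at chr8:123421620-123421682 (plus) and Tubb4a at chr17:57080690-57080752 (minus).
Tubb4b: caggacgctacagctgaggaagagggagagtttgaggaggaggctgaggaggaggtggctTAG
Tubb5: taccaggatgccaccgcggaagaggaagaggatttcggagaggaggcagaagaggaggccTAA
Tubb2b: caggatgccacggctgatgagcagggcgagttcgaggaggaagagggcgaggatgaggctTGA
Tubb2a: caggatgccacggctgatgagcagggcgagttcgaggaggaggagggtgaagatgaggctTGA
Tubb3: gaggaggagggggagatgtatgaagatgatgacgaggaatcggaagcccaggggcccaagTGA
Tubb4a: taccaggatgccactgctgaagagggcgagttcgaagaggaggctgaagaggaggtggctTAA
Compared base by base from the stop codon, Tubb2a and Tubb2b differed at 3 of 63 bases, while Tubb3 differed from Tubb4b at 37. Over the whole coding sequence Tubb2a and Tubb2b were 96.5% identical and the other beta pairs 80.3% to 85.9%. The 3 alpha genes lie within 1 stretch of chromosome 15 (Tuba1a at 98949837 to 98953703, minus strand, Tuba1b at 98931425 to 98934565, minus strand, and Tuba1c at 99029891 to 99038110, plus strand) and were 97.1% to 98.3% identical in coding sequence.

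This likeness bears on the counts, since 3' libraries read the end of a transcript. Of all 50-base words in the last 400 bases, 43.9% for Tuba1a, 53.3% for Tuba1b and 59.3% for Tuba1c also occurred in another annotated gene, mostly in each other and in pseudogenes. The share was 31.9% for Tubb2a (shared with Tubb2b and a Tubb2a pseudogene) and 29.3% for Tubb4b (shared with pseudogenes), and 0 for Tubb2b, Tubb3, Tubb4a, Tubb5 and Tubb6. Levels of the 3 alpha genes, of Tubb2a and of Tubb4b are therefore less certain than those of the other members. A unique molecular identifier (UMI) counts 1 captured 3' end, so levels are not scaled to transcript length. They are given as CPM, a gene's counts per 1000000 UMIs of the summed cells.

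The promoters of Tubb4b and Tubb5, which led the beta mix in ependymal-like and dividing cells, and of Tubb3, the member that differed most between neuronal and astrocyte-like cells, are shown next, as RefSeq gives them in GRCm38.p6, from 250 bases before to 50 bases after the start. The motifs searched were CCAAT (bound by NF-Y), TTTGAA (a core of the CHR element of cell cycle genes) and GTTNCC (the repeated arm of an RFX site), on both strands. Capitals mark every match, and no matches overlapped in these windows. The windows are chr2:25224653-25224952 (minus strand) for Tubb4b, chr17:35838252-35838551 (minus) for Tubb5 and chr8:123411303-123411602 (plus) for Tubb3.
Tubb4b: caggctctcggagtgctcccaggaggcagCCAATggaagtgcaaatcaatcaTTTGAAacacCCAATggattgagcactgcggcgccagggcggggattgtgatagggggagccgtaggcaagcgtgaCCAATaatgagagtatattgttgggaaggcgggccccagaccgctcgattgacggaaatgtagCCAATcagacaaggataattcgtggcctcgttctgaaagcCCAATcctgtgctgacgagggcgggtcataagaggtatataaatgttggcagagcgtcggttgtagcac
Tubb5: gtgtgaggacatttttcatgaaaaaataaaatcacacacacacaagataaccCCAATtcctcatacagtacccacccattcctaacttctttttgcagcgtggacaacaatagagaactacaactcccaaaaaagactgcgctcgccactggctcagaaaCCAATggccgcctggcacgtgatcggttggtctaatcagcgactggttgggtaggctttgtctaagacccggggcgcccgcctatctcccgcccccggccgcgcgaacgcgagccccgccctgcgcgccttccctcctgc
Tubb3: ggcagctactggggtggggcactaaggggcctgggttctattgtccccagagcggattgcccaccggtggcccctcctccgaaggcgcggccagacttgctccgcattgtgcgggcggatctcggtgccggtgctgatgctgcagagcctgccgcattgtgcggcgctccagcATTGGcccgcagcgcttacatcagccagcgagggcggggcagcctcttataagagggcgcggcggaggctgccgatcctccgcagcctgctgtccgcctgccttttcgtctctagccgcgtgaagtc
The Tubb4b window held 5 CCAAT matches and 1 TTTGAA match, the Tubb5 window 2 CCAAT matches and the Tubb3 window 1, and none of the 3 held GTTNCC. Of 32851 RefSeq promoter windows of this length, 37.4% held at least 1 CCAAT, 11.7% at least 2 and 0.271% at least 5, while TTTGAA was found in 17.9% and GTTNCC in 45.3%. Promoter entries were matched for 8 of the 10 members. A match describes the letters of the window and is no evidence of binding.

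Depth was 788344 UMIs over 314 barcodes for tdTomato-positive cells, against 929997 UMIs over 259 barcodes and 3593633 UMIs over 1127 barcodes for tdTomato-negative libraries 1 and 2. After filtering, 252, 256 and 1121 cells were kept, with median depths of 2535, 2639.5 and 2401 UMIs. The median mitochondrial share was 8.27% in the tdTomato-positive library, against 3.22% and 3.38% in the tdTomato-negative ones. Between 1 and 3 barcodes of each library also occurred in another library. Cells were clustered without any tubulin gene and named from marker lists. An ependymal-like class (234 cells, of which 177 were tdTomato-positive) was led by Ccdc153, Rarres2 and Tmem212. A transit-amplifying-like class, called dividing cells below (256 cells, 1 tdTomato-positive), joined a cluster led by Cenpf, Nusap1 and Ube2c with one led by Ung, Mcm2 and Mcm3. Neuroblast-like (376) and neuron-like (330) cells were joined as neuronal cells (706, of which 2 were tdTomato-positive). The astrocyte-like class (278 cells, 16 tdTomato-positive) joined a cluster led by Slc7a10, Htra1 and Ntm with one led by Gfap, Id3 and Thbs4. Smaller classes were oligodendrocyte precursor-like (OPC-like, 69 cells), oligodendrocyte-like (37), endothelial-like (20), mural-like (15) and microglia-like cells (14). Defining markers of every one of these classes were detected.

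Tubulin transcripts made up 0.459% of all UMIs in tdTomato-positive cells, against 1.18% and 1.25% in the 2 tdTomato-negative libraries. Summed over libraries, they were 1.79% of UMIs in neuronal cells, 1.32% in dividing cells, 0.529% in ependymal-like cells and 0.264% in astrocyte-like cells. Tuba1a was the most abundant member over all kept cells (22224 UMIs), followed by Tubb5 (13388) and Tubb2b (8050). Tuba1c (85 UMIs) and Tubb6 (15 UMIs), which is expressed broadly outside the nervous system, were the rarest. In single-cell sums a lower CPM is a lower share of the class's RNA, and the total RNA per cell was not measured.

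The beta isotype mix, described without a test, differed between several cell classes. In ependymal-like cells Tubb4b was 91.4% of beta-tubulin UMIs at the tdTomato-positive gate, 77.5% in tdTomato-negative library 1 and 76.1% in library 2 (81.7% ± 8.50, SD, n = 3). In dividing cells Tubb5 led with 55.0% and 58.6% in tdTomato-negative libraries 1 and 2. Neuronal cells divided their beta tubulin among 3 isotypes: Tubb5 took 36.4% and 35.9%, Tubb2b 33.7% and 32.5%, and Tubb3 23.4% and 25.2%. The mix was much alike in neuroblast-like and neuron-like cells. Their mean shares were 36.8% and 34.5% for Tubb5, 32.7% and 34.1% for Tubb2b, and 24.5% and 24.1% for Tubb3. In oligodendrocyte-like cells Tubb4a took 82.6% at the tdTomato-positive gate and 72.3% in tdTomato-negative library 2. In astrocyte-like cells Tubb2b led, at 40.0% for the tdTomato-positive gate and 43.1% and 39.4% for tdTomato-negative libraries 1 and 2. That lead was less clear in the Gfap-led astrocyte cluster. There Tubb2b took 34.2% to 34.6% and Tubb4b 25.7% to 34.2% in the tdTomato-negative libraries.

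**Figure D1:**
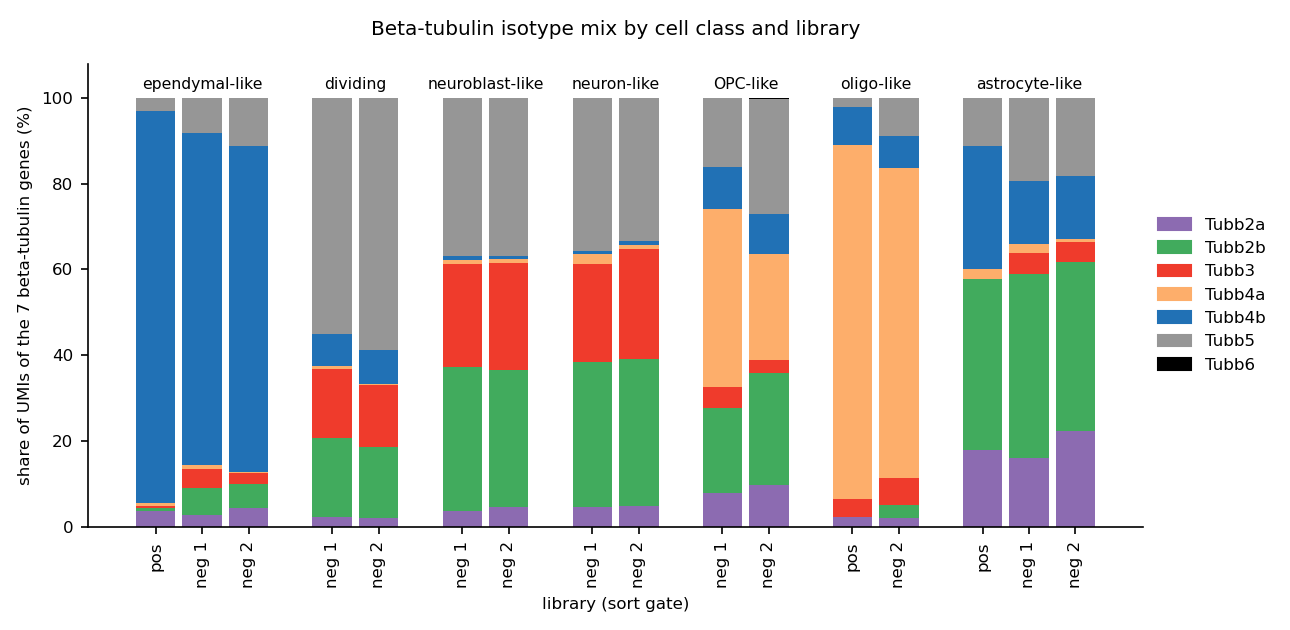
Stacked bars give the share of each beta gene among the UMIs of the 7 beta-tubulin genes (vertical axis, percent), by cell class and library (pos, tdTomato-positive; neg 1 and neg 2, tdTomato-negative), for sums of at least 10 cells. Blue (Tubb4b) fills most of the ependymal-like bars, grey (Tubb5) leads in dividing cells, and orange (Tubb4a) leads in oligodendrocyte-like cells.

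The same order held cell by cell. Among ependymal-like cells with at least 3 beta-tubulin UMIs, Tubb4b had the most UMIs in 175 of 177 (98.9%; exact Clopper-Pearson 95% interval 96.0% to 99.9%). Tubb5 led in 221 of 253 dividing cells (87.4%; 82.6% to 91.2%), and Tubb4a in 28 of 28 oligodendrocyte-like cells. By library, Tubb4b led in 129 of 129 tdTomato-positive ependymal-like cells, and in 9 of 9 and 37 of 39 in tdTomato-negative libraries 1 and 2. Tubb5 led in 43 of 44 and 178 of 209 dividing cells of tdTomato-negative libraries 1 and 2 (97.7% and 85.2%). Neuronal cells were mixed: of 694, Tubb5 led in 270, Tubb2b in 237 and Tubb3 in 97, and 90 were tied. Tubb2b led in 71 of 172 astrocyte-like cells. The intervals pool cells of the libraries and cover counting error only, not the spread between libraries. The dividing cells were the deepest (median 6135 UMIs, against 3632.5 in ependymal-like, 2004 in neuronal and 2352 in astrocyte-like cells). The alpha mix varied less. Tuba1a took 83.9% of alpha UMIs in ependymal-like, 72.2% in dividing, 94.2% in neuronal and 75.7% in astrocyte-like cells over all libraries, and Tuba1b took 27.1% in dividing cells, against 5.76% in neuronal cells.

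**Figure D2:**
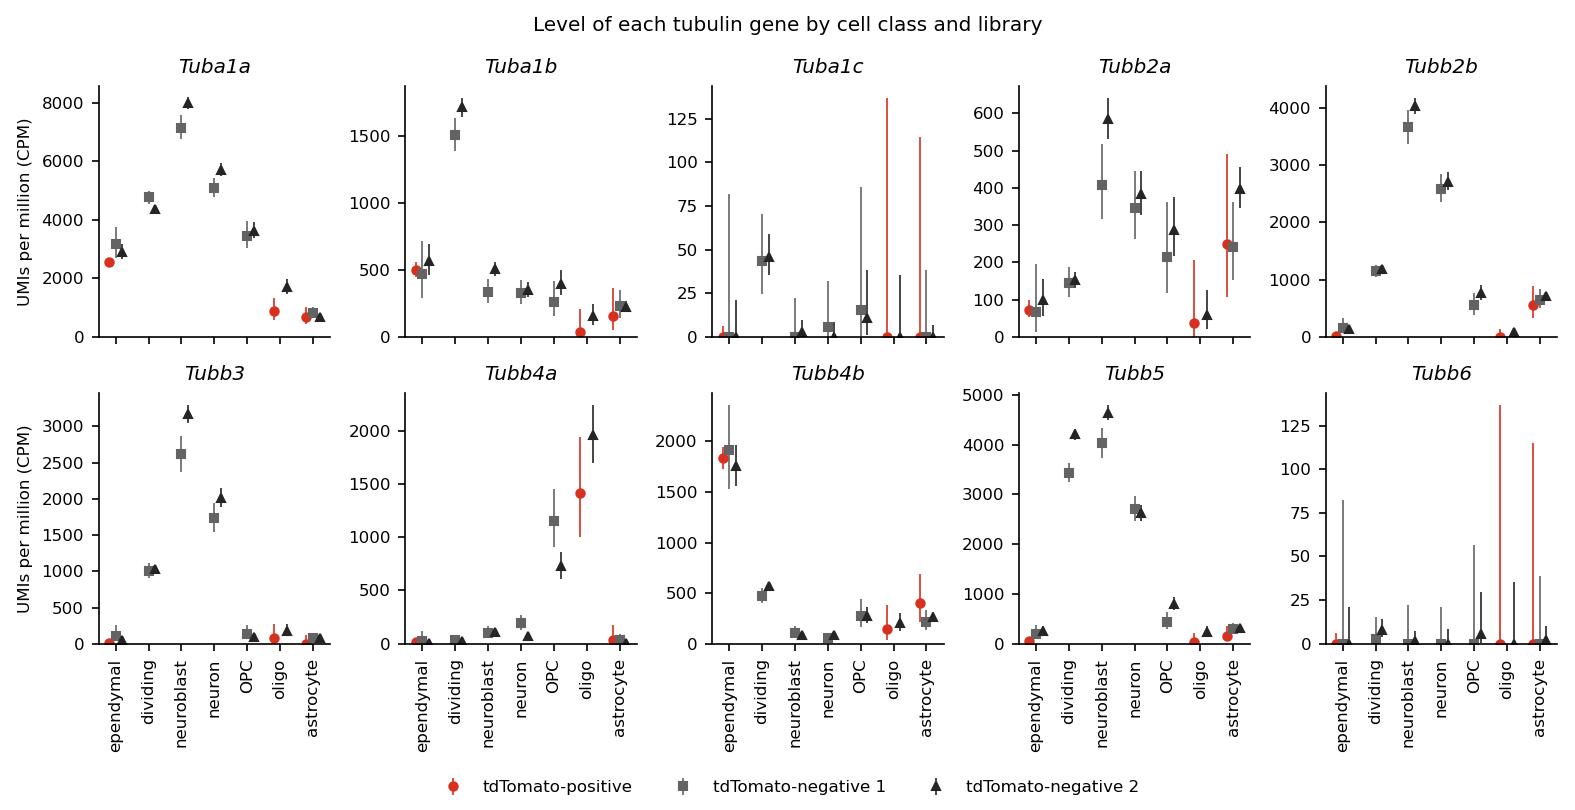
Each panel shows 1 tubulin gene in CPM (vertical axis) in 7 cell classes (horizontal axis), with 1 point per library of at least 10 cells and its exact Poisson 95% interval. Tubb4b is highest in ependymal-like cells (1755 to 1913 CPM), Tubb4a in oligodendrocyte-like cells (1410 and 1954), Tuba1b and Tuba1c in dividing cells, and Tuba1a, Tubb2b and Tubb3 in neuroblast-like cells.

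Ependymal-like cells, which carry motile cilia, were compared with astrocyte-like cells, the other large class found at both gates. Of the 10 members, 8 passed the filter on low counts (Tuba1c and Tubb6 did not), and 3 rose and 2 fell, where 29.7% of the 3579 genes tested were called (17.2% higher and 12.5% lower). The median log2 fold change of the 8 was -0.11, against 0.01 over all genes tested. Tubb4b was at 1833, 1913 and 1755 CPM in ependymal-like cells (tdTomato-positive first, then tdTomato-negative libraries 1 and 2), against 404, 219 and 264 CPM in astrocyte-like cells. All ependymal-like values lay above all astrocyte-like ones, but the share of all genes of which this is true was not computed. Tubb4b rose by 2.64 ± 0.23 on the log2 scale (± approximate SE, edgeR quasi-likelihood test with library as a block, Benjamini-Hochberg adjusted p = 5.73e-29). The highest astrocyte-like value was that of the tdTomato-positive library (16 cells), in which the 12 ependymal markers summed to 1555 CPM (10 of 12 detected), against 366 and 288 CPM in the tdTomato-negative ones. Their part in that value was not tested.

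The alpha genes rose as well. Tuba1a was at 2572, 3181 and 2917 CPM in ependymal-like cells and at 684, 815 and 668 CPM in astrocyte-like cells, in the same order of libraries (log2 fold change 2.00 ± 0.23, edgeR adjusted p = 2.9e-17). Tuba1b was at 501, 467 and 569.5 CPM, against 156, 229.9 and 223 CPM (1.25 ± 0.27, adjusted p = 2.29e-05). For neither gene did the joined classes overlap, and the share of all genes of which this is true was not computed. The 2 astrocyte-like clusters differed in Tuba1b, however: the Gfap-led cluster was at 600.3 and 545 CPM in tdTomato-negative libraries 1 and 2, within and above the ependymal-like values, and the Slc7a10-led cluster at 76.3, 111 and 140.3 CPM in the 3 libraries. The Tuba1b difference therefore holds against the joined class and not against the Gfap-led cluster. Tubb2b, the leading isotype of astrocyte-like cells, was at 13.6, 156 and 132 CPM in ependymal-like cells, against 560.0, 648 and 705 CPM (-3.08 ± 0.33, edgeR adjusted p = 4.72e-19). Its near-copy Tubb2a was at 73.1, 66.7 and 97.8 CPM, against 249, 240.3 and 398 CPM (-1.92 ± 0.32, adjusted p = 4.46e-08). Both were lower in every library, which was likewise not counted over all genes.

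Tubb3, Tubb4a and Tubb5 did not pass the test between these classes. Tubb3 had 11.9, 111 and 57.5 CPM in ependymal-like and 0, 73.1 and 85.5 CPM in astrocyte-like cells (-0.44 ± 0.49, edgeR adjusted p = 0.576). Tubb5 had 59.5, 200.2 and 259 CPM, against 156, 293 and 324 CPM (-0.61 ± 0.32, adjusted p = 0.149). Without library as a block both were called lower, with log2 fold changes of -1.26 (adjusted p = 0.035) and -1.01 (adjusted p = 0.023). Tubb4a was at 5.75 to 22.2 CPM in ependymal-like and 9.30 to 31.3 CPM in astrocyte-like cells. Tuba1c and Tubb6 had 0 UMIs in 234 ependymal-like cells, which allows up to 3.72 CPM (3 counts of the class's UMIs).

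Dividing cells, all but 1 of which came from the tdTomato-negative libraries, were compared with astrocyte-like cells. Of the 8 members tested, 6 rose and 1 fell, against 46.2% of 3579 genes called (23.4% higher and 22.7% lower), and their median log2 fold change was 1.78 (0.04 over all genes tested). Tubb5 was at 3436 and 4208 CPM in dividing cells of tdTomato-negative libraries 1 and 2, against 156, 293 and 324 CPM in astrocyte-like cells (tdTomato-positive, then tdTomato-negative 1 and 2). The difference was 3.54 ± 0.26 on the log2 scale (edgeR adjusted p = 5.4e-41). The values did not overlap, which was not counted over all genes. Tuba1b was at 1510.5 and 1717 CPM, against 156, 229.9 and 223 CPM (2.87 ± 0.24, edgeR adjusted p = 1.01e-30). Tubb3 was at 1009 and 1027 CPM, against 0, 73.1 and 85.5 CPM (3.55 ± 0.29, adjusted p = 4.5e-32). The 11 neuroblast markers summed to 4936 and 4379 CPM in dividing cells (11 of 11 detected), against 31.1, 439 and 498 CPM in astrocyte-like cells (1, 9 and 11 of 11). Their part in the Tubb3 result was not tested.

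Tuba1a rose by 2.59 ± 0.24 to 4770 and 4384 CPM, and Tubb4b by 0.97 ± 0.24 to 472 and 572 CPM (edgeR adjusted p = 3.56e-26 and 0.000212). The Tubb4b values overlapped those of the Gfap-led astrocyte cluster (557 and 418 CPM). Tubb4b in dividing cells was thus well below its level in ependymal-like cells. Tubb2a was lower, at 144 and 152 CPM (-1.27 ± 0.24, edgeR adjusted p = 9.39e-07). Tubb2b was at 1147 and 1189.5 CPM, above all astrocyte-like values, but its call (0.58 ± 0.23, adjusted p = 0.0275) was lost with DESeq2 (0.12, adjusted p = 0.897). Without tdTomato-negative library 1 the calls of Tubb2b (0.23, adjusted p = 0.804) and Tubb4b (0.91, adjusted p = 0.151) were lost, and without library 2 those of Tubb2b (0.53, 0.238), Tubb4b (0.81, 0.09) and Tubb2a (-0.78, 0.244). Tubb4a was at 32.5 and 22.6 CPM in dividing cells and did not pass.

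Tuba1c, the rarest alpha member, was nearly all in dividing cells: 79 of its 85 UMIs in kept cells came from them. It was at 43.4 and 46.0 CPM in dividing cells of tdTomato-negative libraries 1 and 2, and 0 of 278 astrocyte-like and 0 of 234 ependymal-like cells had a UMI. Against a floor of 3 counts over the whole class, its level over all dividing cells (45.4 CPM) was at least 10.1-fold higher than in astrocyte-like and at least 12.2-fold higher than in ependymal-like cells. It did not pass the filter on low counts. Of the 15 Tubb6 UMIs, 12 came from dividing cells.

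The clusters of dividing cells differed in isotypes, which is given as a description. In the cluster led by Cenpf, Nusap1 and Ube2c, genes of G2 and mitosis, Tuba1b was at 1819 and 2143 CPM in tdTomato-negative libraries 1 and 2, against 933 and 1008 CPM in the cluster led by Ung, Mcm2 and Mcm3, genes of DNA replication. Tubb4b was at 587 and 739 CPM, against 257 and 296 CPM, and Tubb5 at 3772 and 5079 CPM, against 2808 and 2756 CPM. Tuba1c was at 62.4 and 72.5 CPM, against 7.78 and 1.95 CPM (1 UMI in each library). Values of these 4 genes did not overlap between the clusters, nor did those of Tubb3 below. With 2 values per cluster this is a weak criterion, and the share of all genes that meet it was not computed. Tuba1a (4746 and 4400.3 CPM, against 4815 and 4356) and Tubb2b (1119.9 and 1206 CPM, against 1198 and 1162) overlapped between the clusters, and Tubb3 was slightly lower in the Cenpf-led cluster (987 and 1004 CPM, against 1050.1 and 1067). The median depth was 7208 UMIs in the first cluster and 5563 in the second.

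**Figure D3:**
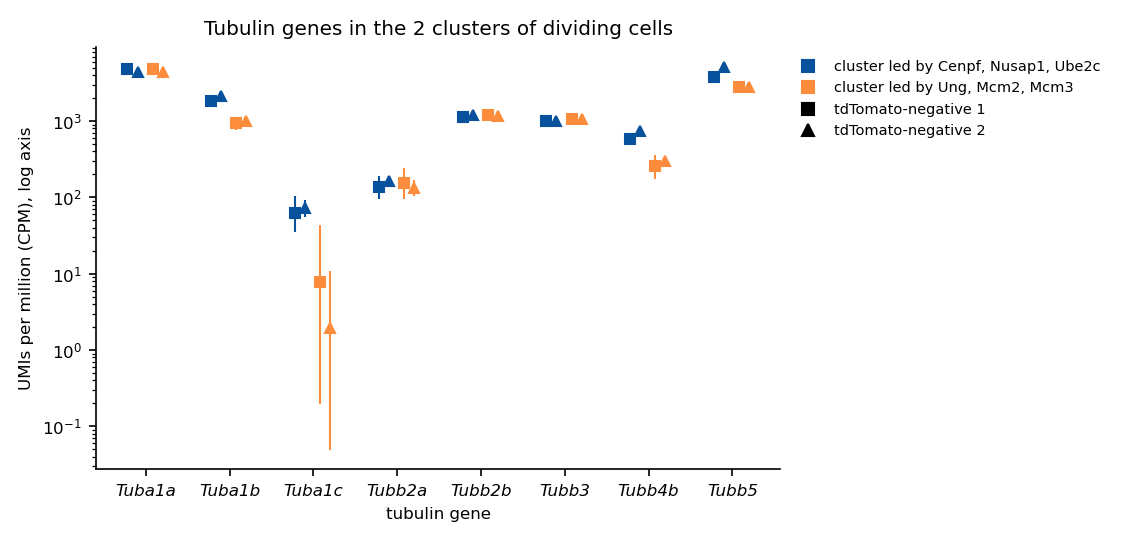
Points give CPM (log axis) of 8 tubulin genes in the 2 clusters of dividing cells, for each tdTomato-negative library, with exact Poisson 95% intervals. Tuba1b, Tuba1c, Tubb4b and Tubb5 are higher in the cluster led by Cenpf in both libraries, while Tuba1a and Tubb2b overlap between the clusters.

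Neuronal cells were compared with astrocyte-like cells in the same fit. Of 8 members tested, 6 rose and 1 fell, against 44.3% of 3579 genes called (22.1% higher and 22.2% lower), with a median log2 fold change of 2.52 (0.07 over all genes tested). Tubb3 was at 2159 and 2747 CPM in neuronal cells of tdTomato-negative libraries 1 and 2, against 0, 73.1 and 85.5 CPM in astrocyte-like cells (tdTomato-positive, then tdTomato-negative 1 and 2; 4.90 ± 0.29 on the log2 scale, edgeR adjusted p = 1.15e-61). It was the largest difference among the members. Tuba1a reached 6099 and 7158 CPM (3.20 ± 0.24, edgeR adjusted p = 7.63e-39) and Tubb5 3351 and 3908 CPM (3.54 ± 0.26, adjusted p = 5.6e-41). Tubb2b was at 3103 and 3542 CPM (2.16 ± 0.23, adjusted p = 1.99e-19). For these 4 genes the neuronal and astrocyte-like values did not overlap, and the share of all genes of which this is true was not computed.

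Tubb4a, low outside the oligodendrocyte lineage, was at 148 and 99.6 CPM in neuronal cells, against 31.1, 31.3 and 9.30 CPM in astrocyte-like cells (2.88 ± 0.42, edgeR adjusted p = 1.12e-10). Tubb4b was the member that fell, at 79.9 and 87.1 CPM (-1.61 ± 0.28, adjusted p = 7.42e-08). Tuba1b was at 331 and 449.5 CPM (0.90 ± 0.25, adjusted p = 0.00134), against 156, 229.9 and 223 CPM in the joined astrocyte-like class. Both neuronal values lay below those of the Gfap-led astrocyte cluster (600.3 and 545 CPM) and above those of the Slc7a10-led one. The call was lost without tdTomato-negative library 1 (1.03, adjusted p = 0.104) or library 2 (0.75, adjusted p = 0.221). Tubb2a, at 376 and 511 CPM, did not pass (0.42 ± 0.22, adjusted p = 0.111).

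Set against dividing cells, neuronal cells had 5 members higher and 2 lower of 8 tested, where 26.7% of 3579 genes were called (13.1% higher and 13.6% lower). The median log2 fold change of the 8 was 0.97, against 0.01 over all genes tested. Tuba1b was at 331 and 449.5 CPM in neuronal cells, against 1510.5 and 1717 CPM in dividing cells (-1.98 ± 0.22, edgeR adjusted p = 2.53e-18). Tubb4b was at 79.9 and 87.1 CPM, against 472 and 572 CPM (-2.58 ± 0.25, adjusted p = 2.59e-22). Both were lower in each library, which was not counted over all genes. Tubb2b was at 3103 and 3542 CPM, against 1147 and 1189.5 CPM (1.58 ± 0.21, adjusted p = 3.48e-12), Tubb3 at 2159 and 2747 CPM, against 1009 and 1027 CPM (1.34 ± 0.21, adjusted p = 1.58e-09), and Tubb2a at 376 and 511 CPM, against 144 and 152 CPM (1.69 ± 0.22, adjusted p = 6.48e-13).

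Tubb4a rose too (2.20 ± 0.27, edgeR adjusted p = 1.26e-14). The rise of Tuba1a (0.61 ± 0.23, adjusted p = 0.0305) was not called without library as a block (0.62, adjusted p = 0.268), nor without tdTomato-negative library 1 (0.80, 0.526) or library 2 (0.48, 0.352). It was also lost with no count filter (adjusted p = 0.0909), at clustering resolution 2.0 (0.0503) and with odd-digit clustering (0.0771). Tubb5, the leading isotype of dividing cells, was at 3351 and 3908 CPM in neuronal cells and 3436 and 4208 CPM in dividing cells. Its values overlapped, and the log2 fold change was 0.00 ± 0.21 (adjusted p = 1). No difference in the Tubb5 level was detected, while its share of the beta mix was lower in neuronal cells, beside more Tubb2b and Tubb3.

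**Figure D4:**
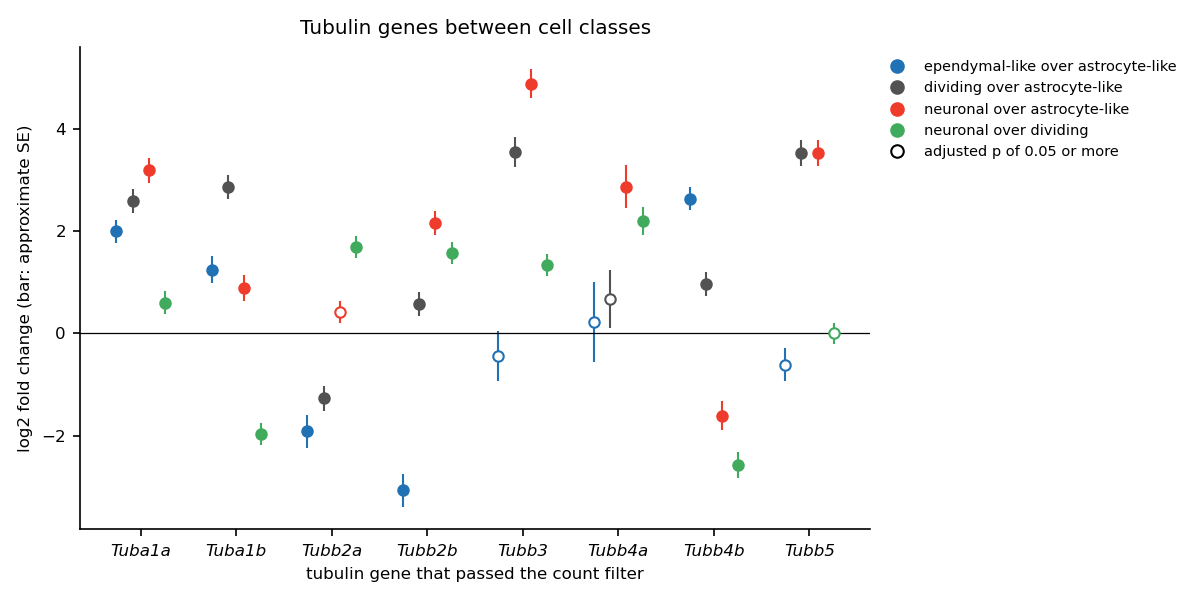
Points give the log2 fold change (vertical axis, bars approximate SE) of the 8 tubulin genes that passed the count filter (horizontal axis) in 4 comparisons of cell classes. Filled points had an edgeR adjusted p under 0.05, such as Tubb4b at 2.64 in ependymal-like over astrocyte-like cells and Tubb3 at 4.90 in neuronal over astrocyte-like cells, while Tubb5 lies at 0.00 in neuronal over dividing cells.

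Within the neuronal cells, neuroblast-like cells held more of each main isotype than neuron-like cells. Tuba1a was at 7155 and 7986 CPM in neuroblast-like cells of tdTomato-negative libraries 1 and 2, against 5102 and 5718 CPM in neuron-like cells. Tubb2b was at 3654 and 4021 CPM, against 2583 and 2708 CPM, Tubb3 at 2612 and 3168 CPM, against 1731 and 2015 CPM, and Tubb5 at 4025 and 4646 CPM, against 2715 and 2625 CPM. None of these values overlapped, but the share of all genes of which this is true was not computed. Tubb3 and Tubb2b were among the 10 leading genes of the neuroblast-like cluster, although tubulins were not used to cluster, so the order is a description. The marker lists did not part these clusters cleanly: the neuroblast markers summed to 11363 and 11019 CPM in neuroblast-like and 11170.4 and 10217 CPM in neuron-like cells, and the neuron markers to 4981 and 5423 CPM, against 7967 and 8917 CPM.

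Tubb4a was highest in oligodendrocyte-like and OPC-like cells. It was at 1410 and 1954 CPM in oligodendrocyte-like cells of the tdTomato-positive gate (14 cells) and of tdTomato-negative library 2 (20 cells), at 1155 and 728 CPM in OPC-like cells of tdTomato-negative libraries 1 and 2, and at 189.8 CPM or less in every other sum of 1 class and library with at least 10 cells. In OPC-like cells it did not lead throughout: it took 41.4% and 24.6% of beta-tubulin UMIs in tdTomato-negative libraries 1 and 2, with Tubb5 at 16.0% and 27.0% and Tubb2b at 19.9% and 26.1%, and of 53 cells Tubb2b led in 17, Tubb4a in 10 and Tubb5 in 10, with 13 tied. OPC-like cells also held Tubb2b (554 and 771 CPM) and Tubb5 (447 and 798 CPM), which were at 0 and 76.6 CPM and at 37.1 and 239 CPM in oligodendrocyte-like cells. In the tdTomato-positive library, 20 endothelial-like cells had 17 Tubb4b and 11 Tubb5 UMIs and 14 microglia-like cells 3 and 5, and neither class had a UMI of Tubb3 or Tubb4a.

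The gates were also compared over all kept cells, with the spread taken only from the 2 tdTomato-negative libraries, since the tdTomato-positive gate has 1 library. Of the members, 9 were tested and all 9 were called, 1 higher and 8 lower in the tdTomato-positive library, against 41.8% of 10944 genes (22.9% higher and 19.0% lower). The gates hold different cells: 177 of 252 tdTomato-positive cells were ependymal-like, against 12 of 256 and 45 of 1121 tdTomato-negative ones, and cell makeup and level per cell cannot be told apart here. Tubb4b was at 1555 CPM in the tdTomato-positive library, against 352 and 393 CPM in tdTomato-negative libraries 1 and 2 (2.11 ± 0.30 on the log2 scale, edgeR adjusted p = 5.61e-11). Tubb3 was at 24.99 CPM, against 1215 and 1336 CPM (-5.62 ± 0.47, adjusted p = 5.25e-30), Tubb2b at 58.3 CPM, against 1709 and 1792 CPM (-4.85 ± 0.44), and Tubb5 at 98.6 CPM, against 2674 and 3023 CPM (-4.80 ± 0.43).

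Tuba1a (2246 CPM, against 4630.5 and 4550.3 CPM), Tuba1b (457, against 789 and 894), Tubb2a (80.5, against 240 and 313) and Tubb4a (65.2, against 173 and 140.3) were lower by 0.97 ± 0.34, 0.83 ± 0.33, 1.74 ± 0.36 and 1.19 ± 0.35 on the log2 scale, in that order (edgeR adjusted p = 0.0126, 0.0308, 9.95e-06 and 0.00278). DESeq2 did not call Tuba1b (adjusted p = 0.0779) or Tubb4a (0.0845), and without the count filter Tuba1a (0.134) and Tuba1b (0.116) were not called. Tuba1c had 0 UMIs at the tdTomato-positive gate, against 19.4 and 18.7 CPM in the tdTomato-negative libraries, which is at least 4.58-fold lower against a floor of 3 counts. The comparison has 1 residual degree of freedom.

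Within ependymal-like cells no difference by gate was detected in the main isotypes of the class, and 2 isotypes with higher levels in other classes were called lower at the tdTomato-positive gate by edgeR, though not by DESeq2. The spread in this test comes only from the 2 tdTomato-negative libraries, since the tdTomato-positive gate has 1. Of 7 members tested, 2 were called, both lower in the tdTomato-positive library, where 0.293% of 4098 genes were called (0.171% higher and 0.122% lower). Tubb4b was at 1833 CPM in the tdTomato-positive library, against 1913 and 1755 CPM in tdTomato-negative libraries 1 and 2 (0.12 ± 0.30, edgeR adjusted p = 0.999). Tuba1a was at 2572 CPM, against 3181 and 2917 CPM (-0.12 ± 0.31), and Tuba1b at 501 CPM, against 467 and 569.5 CPM (0.00 ± 0.30). For Tubb4b and Tuba1b the tdTomato-positive value lay between the tdTomato-negative ones, and for Tuba1a just below them. A p that misses the threshold does not show equal levels.

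Tubb2b was at 13.6 CPM in tdTomato-positive ependymal-like cells (8 UMIs), against 156 and 132 CPM in tdTomato-negative ones (7 and 23 UMIs), a log2 fold change of -3.22 ± 0.62 (edgeR adjusted p = 0.000204). Tubb5 was at 59.5 CPM (35 UMIs), against 200.2 and 259 CPM (9 and 45 UMIs), -1.93 ± 0.42 (adjusted p = 0.00253). The tdTomato-positive value was the lowest for both, a weak criterion with 3 libraries. The share of all genes of which this is true was not computed. Tubb3 was at 11.9 CPM (7 UMIs), against 111 and 57.5 CPM (5 and 10 UMIs), and did not pass (-2.52 ± 1.75, adjusted p = 0.999). DESeq2 called neither gene (adjusted p = 0.9998 for both), and without the count filter Tubb5 was not called (adjusted p = 0.142). Leaving out tdTomato-negative library 1 or 2 gave -2.85 and -2.89 for Tubb2b and -2.01 and -1.51 for Tubb5, with no test. A UMI of Tubb2b was found in 4.52% of tdTomato-positive ependymal-like cells, against 41.7% and 37.8% of tdTomato-negative ones (0.625%, against 36.4% and 15.6% after thinning to 1000 UMIs), at median depths of 3284, 4069 and 4304 UMIs.

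Neuroblast markers moved with this result. In ependymal-like cells the 11 markers summed to 51.0 CPM in the tdTomato-positive library (6 of 11 detected), against 467 and 426 CPM in tdTomato-negative libraries 1 and 2 (10 of 11 in each, with Prokr2 at 0). Igfbpl1, Dlx5, Dlx6os1, Sp9 and Prokr2 were at 0 in the tdTomato-positive library. In astrocyte-like cells the sums were 31.1, 439 and 498 CPM. The 13 transit-amplifying markers moved likewise in ependymal-like cells (178 CPM with 9 of 13 detected, against 690 and 512 CPM with 9 and 12 detected), while the median mitochondrial share was higher in the tdTomato-positive library (9.11%, against 6.32% and 7.29%). The part of these in the Tubb2b and Tubb5 results was not tested.

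For 100 neuroblast marker UMIs, ependymal-like cells held 26.7 Tubb2b UMIs at the tdTomato-positive gate, against 33.3 and 31.1 in tdTomato-negative libraries 1 and 2, and neuronal cells held 27.5 and 33.0 in the tdTomato-negative libraries. For Tubb5 the figures were 117, 42.9 and 60.8 in ependymal-like cells, against 29.8 and 36.4 in neuronal cells. These ratios rest on 30, 21 and 74 marker UMIs in ependymal-like cells, and what they share with the Tubb2b and Tubb5 results was not tested. Among ependymal-like cells with no UMI of any neuroblast marker, Tubb2b was at 16.7 CPM in 150 tdTomato-positive cells, against 146 CPM in 12 cells of tdTomato-negative library 2, and Tubb5 at 52.2 CPM, against 268 CPM. Library 1 had 2 such cells, with 0 Tubb2b UMIs and 1 Tubb5 UMI. With so few cells in library 1, no test of these cells is read.

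**Figure D5:**
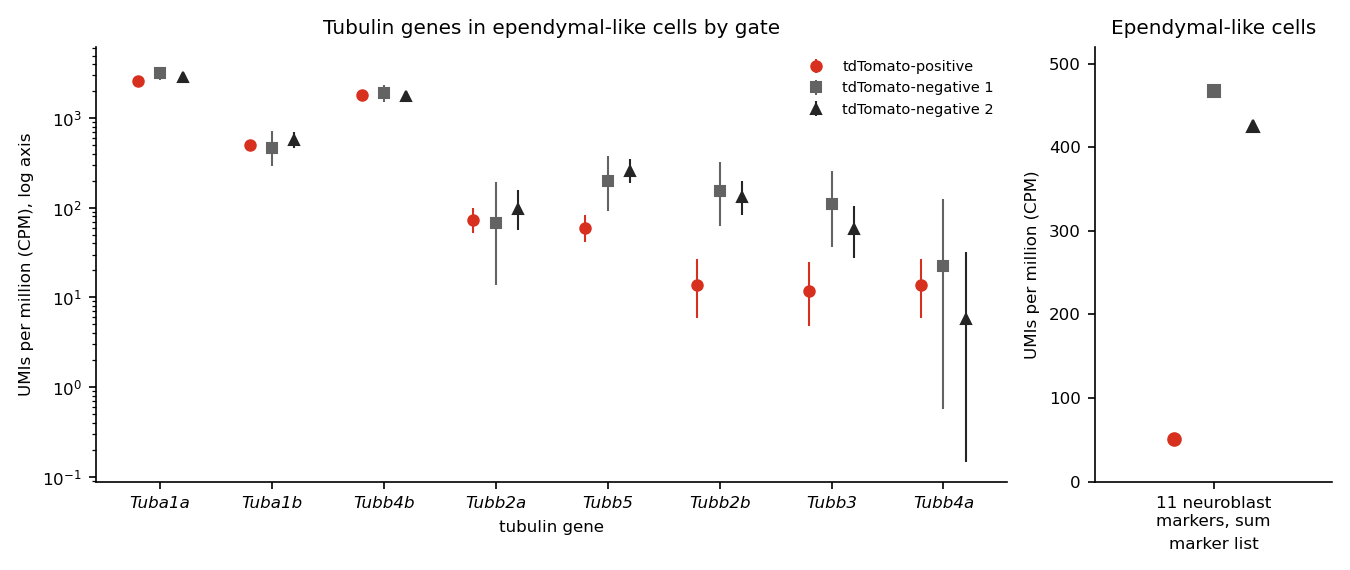
The left panel gives CPM (log axis) of 8 tubulin genes in ependymal-like cells of each library with exact Poisson 95% intervals, and the right panel the sum of the 11 neuroblast markers in the same cells. Tubb2b and Tubb5 are lowest in the tdTomato-positive library (13.6 and 59.5 CPM), as is the marker sum (51.0 CPM, against 467 and 426), while Tubb4b lies at 1755 to 1913 CPM in all 3.

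Other tubulins were scarce. Of 10 further genes (alpha, beta, gamma, delta and epsilon tubulins), Tuba8, Tubal3 and Tubb1 had 0 UMIs and 5 had 36 or fewer. Tuba4a, an alpha isotype, had 16 UMIs in ependymal-like, 3 in dividing, 2 in neuronal and 66 in astrocyte-like cells, that is 0.200 (exact conditional 95% interval 0.108 to 0.349), 0.0174 (0.00350 to 0.0531) and 0.0132 (0.00156 to 0.0495) of the pooled CPM of astrocyte-like cells, and it was called lower in each of the 3 comparisons with them. Tubg1, the gamma tubulin that nucleates microtubules, was at 84.1 and 98.6 CPM in dividing cells, against 0, 20.9 and 24.2 CPM in astrocyte-like cells (1.92 ± 0.43, edgeR adjusted p = 3.8e-05), and at 38.5 and 32.6 CPM in neuronal cells (-1.37 ± 0.32 over dividing cells, adjusted p = 0.000175).

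Genes of tubulin folding were followed as a list of 22, of which 21 are in the gene table and 19 were tested between classes. In dividing over astrocyte-like cells 14 rose and 1 fell, with a median log2 fold change of 1.39, where 23.4% of all genes tested were higher and 22.7% lower and their median was 0.04. Cct4, Tcp1 and Cct8, subunits of the chaperonin, rose by 2.28 ± 0.24, 2.17 ± 0.25 and 2.03 ± 0.24, and the prefoldin subunit Pfdn4 by 2.00 ± 0.31 (edgeR adjusted p = 1.01e-20, 2.68e-17, 1.62e-15 and 7.23e-10). In neuronal over astrocyte-like cells 13 rose and 2 fell (median 1.37, against 22.1% higher, 22.2% lower and a median of 0.07 over all genes tested), with Pfdn4 at 2.01 ± 0.31, Cct4 at 1.97 ± 0.24 and the cofactor Tbca at 1.87 ± 0.25. In ependymal-like over astrocyte-like cells 9 rose and 1 fell (median 0.88, against 17.2% higher, 12.5% lower and a median of 0.01 over all genes tested). Tbcel, a cofactor E-like protein, was called in opposite directions. It was at 127.5, 156 and 161 CPM in ependymal-like cells (1.61 ± 0.41, adjusted p = 0.000614), at 16.3 and 15.3 CPM in dividing cells (-1.71 ± 0.47) and at 8.87 and 11.7 CPM in neuronal cells (-2.12 ± 0.51), against 31.1, 52.2 and 48.4 CPM in astrocyte-like cells. Between gates over all cells, 1 of 21 folding genes rose (Tbcel, 2.12 ± 0.34) and 9 fell, where 22.9% of all genes were higher and 19.0% lower. Their median log2 fold change was -0.77, against -0.07 over all genes tested. In neuronal over dividing cells 2 of 19 rose and 5 fell, where 26.7% of all genes were called.

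Of 28 genes that modify tubulin, 12 were tested between classes. In ependymal-like over astrocyte-like cells 4 rose and none fell, where 17.2% of all genes tested were higher and 12.5% lower. Ttll6, a polyglutamylase of cilia, had 39, 3 and 13 UMIs in ependymal-like cells and 0 in astrocyte-like cells, and was at least 15.1-fold higher against a floor of 3 counts over the class. Ttll3, a glycylase of cilia, was at 343, 400.4 and 403 CPM, against 0, 20.9 and 57.7 CPM (2.95 ± 0.33, edgeR adjusted p = 2.87e-17). The tyrosine ligase Ttl (1.81 ± 0.67, adjusted p = 0.0263) and the deglutamylase Agbl3 (1.35 ± 0.52, adjusted p = 0.0342) rose less. In neuronal over astrocyte-like cells 4 rose and 3 fell, where 44.3% of all genes were called. Those that fell were Agbl3 (-2.60 ± 0.67), Ttll3 (-2.28 ± 0.50) and Tpgs1 (-0.98 ± 0.38), with edgeR adjusted p = 0.000416, 2.48e-05 and 0.0230. Among those that rose were Atat1 and Ttll1. The acetyltransferase Atat1 was at 219 and 185 CPM, against 62.2, 41.8 and 67.0 CPM (1.63 ± 0.27, adjusted p = 8.49e-09), and the polyglutamylase Ttll1 had 97 UMIs in neuronal and 4 in astrocyte-like cells (3.34 ± 0.62, adjusted p = 5.46e-07). In dividing over astrocyte-like cells 2 rose and 4 fell (46.2% of all genes called). The largest called fall was that of Ttll3 (-2.95 ± 0.53) and the largest called rise that of Lrrc49 (1.24 ± 0.52). In neuronal over dividing cells 4 rose and none fell (26.7%), among them Ttll1 (1.99 ± 0.39) and Atat1 (1.16 ± 0.19). Over all cells by gate 13 of 26 rose and 4 fell, where 22.9% of all genes were higher and 19.0% lower. In ependymal-like cells by gate none of 10 modification genes and none of 17 folding genes passed edgeR's adjusted threshold.

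Genes whose levels followed each member most closely were ranked by Pearson's r of log2(CPM + 10) over 16 sums of class and library. These sums share libraries and classes, so r is a description. The top genes were Tmem107, a ciliary transition zone gene (r = 0.908), for Tubb4b, Tdg (0.953) for Tubb3, Hnrnpk (0.947) for Tubb5, Ddah2 (0.918) for Tubb2b, Tagln3 (0.899) for Tubb2a, Prpf38a (0.9215) for Tuba1a and Hmgn1 (0.9075) for Tuba1b. For Tubb4b, Chchd2 (0.902) was close behind Tmem107. Tdg, Hnrnpk, Tagln3 and Prpf38a belonged to the genes on which cells were clustered, which shaped the sums. Among the members, the closest pairs were Tubb2a with Tubb2b (0.879) and Tubb3 with Tubb5 (0.807), and Tubb4b had a negative r with 5 of the other 9, lowest with Tubb2a (-0.448).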

How the data were processed

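The deposited matrices hold raw UMI counts per gene and cell barcode as whole numbers, 1 matrix per library, not normalized by the authors. The submitters' processing notes name the builds mm10 and GRCm38.p5 and the tools STAR, Cell Ranger and Seurat 1.4.0.15. The rule that called barcodes cells is not given in the sources used here.

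A cell was kept if it had 300 or more genes and no more than 25% mitochondrial UMIs. No doublets were removed. Scrublet called 9, 2 and 3 cells. Cells were clustered with scanpy 1.11.5 (1000 variable genes, 20 principal components, 15 neighbours, Leiden resolution 1.0) on 14059 genes: even-numbered Ensembl IDs plus 121 markers, without the tubulin lists. A cluster took the name of the list with most markers among its 10 leading genes, with at least 3 markers 2-fold higher. Odd-numbered and listed genes were tested. Genes vary together, so this split does not make tests independent of the clustering.

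Counts were summed per library and class (at least 10 cells) and compared by edgeR 4.0.16's quasi-likelihood test (TMM, filterByExpr, Benjamini-Hochberg adjustment at 0.05), with library as a block for classes, which are paired within a library by construction, leaving 6 residual degrees of freedom. Gate tests have 1. The test moderates each gene's spread towards that estimated over all genes tested, so its p-values do not rest on these degrees of freedom alone. Approximate standard errors were derived from each log2 fold change and its F statistic. On counts simulated with 200 genes changed by 2 on the log2 scale, the ependymal-like over astrocyte-like test called 167 of the 200 changed genes and 3 of 2877 unchanged ones, the test of gates over all cells 122 of 199 and 6 of 10234, and that in ependymal-like cells 144 of 199 and 5 of 3890. The simulated counts had the same dispersion in every gene. They held no library or class differences beyond depth and the changed genes. These counts of calls thus check the procedure in that setting and are not error rates for these data. DESeq2 1.42.0 was an alternative. Sequences came from GENCODE on GRCm38 and from RefSeq.

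Members that passed the count filter are given for each comparison, and from other lists at most 4 called genes per direction with the largest fold changes. Members that missed the filter are not named in all of them. In ependymal-like cells by gate, Tubb2a was tested and not called, and its fold change is given only in the last section. The members and lists were chosen with earlier results of these data known. The gene most like Tubb4a in pattern is not reported here.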

Additional observations from a re-analysis of the deposited data

How the results depend on the processing

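The 37 called member results were recomputed under 398 alternatives: 373 counted as the same, 22 kept direction but not the call, none reversed, and 3 moved as values with no test. Where a test was possible, the same means that direction and call were kept. The gate comparisons with a tdTomato-negative library left out had no test. There it means only a value within the approximate SE of the main one. The count of members called in dividing over astrocyte-like cells was 7, and 4 to 7 with a library left out. In ependymal-like cells by gate it was 2, against 0 with DESeq2, 1 with no count filter and 0 in cells with no neuroblast marker UMI, where library 1 had 2 cells, so that the last count is not read. The mean Tubb5 share in dividing cells was 56.8%, and 59.9% under the stricter cell filter (500 genes, 10% mitochondrial UMIs). Under that filter, at resolution 0.5 and with Scrublet calls removed, the cluster led by Ung and Mcm genes took no name, which left 154, 143 and 140 dividing cells of 256, mostly those led by Cenpf, and odd-digit clustering left 172. Dividing cells in those 4 settings are thus another set of cells, in the share above and in the values below. The cause of the other changes was not tested.

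Signs reversed only in members that were not called. In ependymal-like over astrocyte-like cells Tubb4a (0.22) was -0.17 with DESeq2, -0.29 with no replicate block, -0.78 under the stricter filter and -0.98 to 0.33 with a library left out, and Tubb3 (-0.44) was 0.065 with Scrublet calls removed and -0.59 to 0.49 with a library left out. In dividing over astrocyte-like cells Tubb4a (0.67) was -0.078 to 0.89 with a library left out. In neuronal over dividing cells Tubb5 (0.00) was -0.0048 with RLE scaling, -0.042 with no count filter, -0.0037 with DESeq2, -0.0032 with no replicate block, -0.20 at resolution 0.5, -0.0099 at 2.0, -0.22 under the stricter filter, -0.18 with Scrublet calls removed, -0.13 with odd-digit clustering and -0.0118 to 0.091 with a library left out. In ependymal-like cells by gate Tuba1b (below 0 before rounding) was 0.10 with no count filter, 0.0030 with DESeq2, 0.038 under the stricter filter, 0.0052 with Scrublet calls removed, 0.37 in cells with no neuroblast marker UMI and -0.17 to 0.24 with a library left out, Tuba1a (-0.12) was 0.53 in cells with no such UMI, and Tubb2a (-0.22) was -0.38 to 0.25 with a library left out.

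Without the replicate block (library) 632 genes were called between neuronal and dividing cells, against 956 with it, and the block changed no member's call other than Tubb3, Tubb5 and Tuba1a, given beside those results. No paired analysis was possible because the tdTomato-positive gate has 1 library, for the comparisons of gates. Counts of all genes called that moved by over 1.5 times were 397 with DESeq2 between neuronal and dividing cells, 1908 (from 4577) with DESeq2 between gates, and, in ependymal-like cells by gate, 0 with DESeq2 (9 at an unadjusted p under 0.05) and 1 in cells with no neuroblast marker UMI (59 unadjusted), against 12 (133 unadjusted). Leaving out tdTomato-negative library 1 gave 894 (from 1652) in dividing and 867 (from 1587) in neuronal over astrocyte-like cells and 205 between neuronal and dividing cells, and leaving out library 2 gave 468, 431 and 140, and 323 (from 1063) in ependymal-like over astrocyte-like cells. With RLE scaling the median log2 fold change of all genes was -0.12 (0.04 with TMM) in dividing and -0.08 (0.07 with TMM) in neuronal over astrocyte-like cells, with no change in a member's call. Depth limits Tuba1c (85 UMIs) and Tubb6 (15 UMIs).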
